A study of Rattus norvegicus with 6 samples.

Results

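The proximal tubule takes back most of what the kidney filters, and it does so with carrier proteins of the solute carrier (SLC) families in its brush border and basolateral membranes. Sodium-coupled carriers in the brush border, driven by the sodium gradient, lift glucose, amino acids, phosphate, sulfate and carboxylates into the cell, and other carriers let them out on the blood side. The early segments S1 and S2 carry most of the high-capacity uptake, and segment S3 has high-affinity carriers for what remains. The transcripts examined here are a list of 33 named genes of such transporters, called carriers below and including the water channel Aqp1: 6 phosphate and sulfate carriers, 4 sugar carriers, 15 amino acid and peptide carriers, 5 carboxylate and vitamin C carriers, and 3 genes of acid-base and water transport. All 33 were matched to probes through RefSeq accessions, out of 30229 genes tested in all, and each was well above background on all 6 arrays. Slc6a20 is listed under its current rat symbol, Slc6a20a.

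Renal cortex came from male Sprague-Dawley rats (Crl:CD(SD)) bought at 5 weeks of age. Rats of the monuron group (n = 3) received monuron, a phenylurea herbicide, at 200 mg/kg/day for 4 weeks, and rats of the corn oil group (n = 3) received corn oil for the same 4 weeks. Each RNA was labelled with Cy3 and hybridised alone to an Agilent oligonucleotide array, and the design text calls the 3 samples of a group biological replicates. A level below is the processed signal of a gene's brightest probe divided by the array's 75th percentile, so that 1 is the level of that percentile, and it may be compared between arrays but not between genes. The 3 monuron arrays lay on one slide and the 3 corn oil arrays on another, scanned on different days, so that the treatment cannot be told apart from slide or scan day.

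Between 60.9% and 70.4% of probes were well above background on an array. Proximal tubule markers were present on all arrays, and their summed level was 759 to 911 on the monuron arrays and 1066 to 1182 on the corn oil arrays. Miox alone gave most of that sum. Its level was 567, 434 and 547 on the monuron arrays and 650, 714 and 745 on the corn oil arrays. Of the 8 proximal tubule markers 0 were called, beside 1.36% of all genes. A log2 fold change below 0 was seen for 7 of them, beside 44.7% of all genes. Their median was -0.33, beside 0.02 over all genes. In cortex RNA, fewer cells of a type and less RNA per cell cannot be told apart. The summed level of 4 thick ascending limb markers, mostly that of Umod, was 252 to 395 on the monuron arrays and 284 to 394 on the corn oil arrays. That of 10 hepatocyte markers was 17.1 to 44.2 on the monuron arrays and 11.6 to 26.0 on the corn oil arrays, with the highest Alb on monuron replicate 1 and corn oil replicate 3. The red cell markers differed between the groups: their summed level was 342 to 367 on the monuron arrays and 155 to 209 on the corn oil arrays. Of the 3 tested, 3 were called higher, beside 0.949% of all genes. The part of red cell RNA in the carriers' values was not tested. Among 6 injury markers 3 were called higher, beside 0.949% of all genes. Havcr1, the kidney injury molecule of damaged proximal tubule, was one of them (levels of 0.269, 0.424 and 0.356 on the monuron arrays and of 0.0302, 0.0217 and 0.0256 on the corn oil arrays, limma adjusted p = 0.00623).

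Most carrier transcripts differed by less than 0.5 on the log2 scale between the groups. By limma's test, with adjustment over all genes at a threshold of 0.05, 1 of the 33 carriers was called, the glutamine carrier Slc38a3, which was higher in monuron cortex, and 0 were called lower. That is 3.03% of the carriers, beside 1.36% of all genes tested (0.949% called higher and 0.414% called lower) and 1.66% of genes with a symbol. The log2 fold change was above 0 for 16 carriers and below 0 for 17, beside 44.7% of all genes below 0. Its median was -0.03 over the carriers and 0.02 over all genes. Within 0.5 of 0 lay 30 of the 33 carriers and 27499 of the 30229 genes tested. The median size of the log2 fold change, without its sign, was 0.24 over the carriers and 0.14 over all genes. The 95% interval of 30 carriers lay within 2-fold in either direction, and that of 21 within 1.5-fold.

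The groups did not overlap for 13 of the 33 carriers (39.4%), beside 25.7% of all genes and 27.7% of genes with a symbol. In 6 of them every monuron array was higher (15.4% of all genes did so) and in 7 every monuron array was lower (10.3%). At an unadjusted p under 0.05, 6 carriers were higher and 6 lower (36.4% together), beside 17.6% of all genes (10.9% higher and 6.73% lower). The carriers therefore included small differences in both directions, and 1 of them passed the adjusted test. The median deviation of the carriers from the corn oil mean was -0.04, -0.09 and 0.00 on the log2 scale on monuron replicates 1, 2 and 3.

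**Figure D1:**
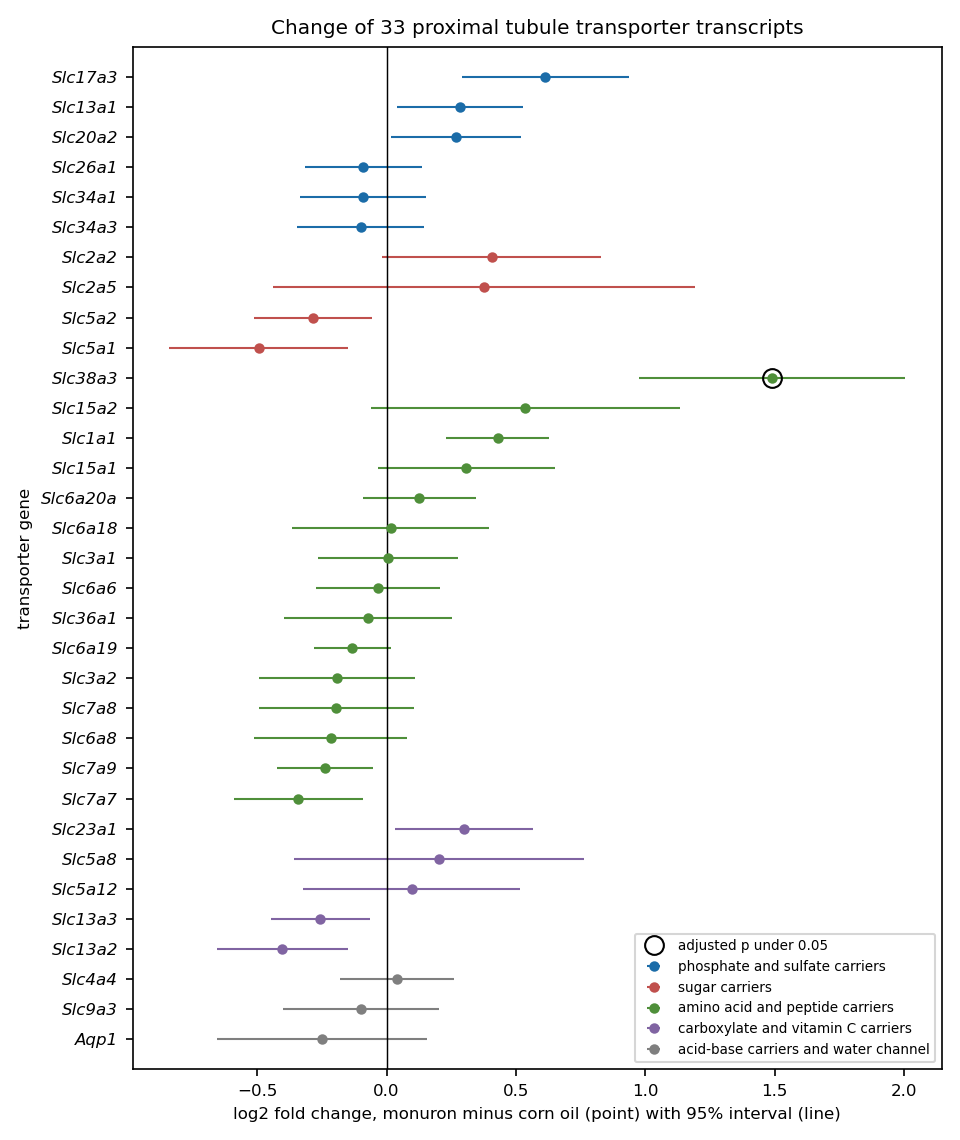
Log2 fold change of each of the 33 carrier transcripts, monuron minus corn oil (x axis), with its 95% interval from limma, grouped by class from top to bottom. Slc38a3, circled, lies at 1.49 and is the carrier called by the adjusted p; 30 of the 33 lie within 0.5 of 0.

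These directions hold for levels set against each array's 75th percentile. When arrays were instead set by their spiked-in control RNA, the median log2 fold change over all genes was -0.56 and that over the carriers -0.62, so that 31 of the 33 carriers lay below 0. Slc38a3 (0.90) and Slc17a3 (0.03) stayed above 0. All changes below are relative to the 75th percentile.

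The main phosphate carriers of the brush border showed small differences within the spread of the arrays. Slc34a1 encodes the sodium-phosphate cotransporter NaPi-IIa, which parathyroid hormone and FGF23 remove from the membrane. Its level was 381, 308 and 370 on the monuron arrays and 362, 382 and 379 on the corn oil arrays. One monuron array lay lowest and another was near the highest corn oil array, so the groups overlapped (log2 fold change -0.09 ± 0.10 SE). Slc34a3, which encodes NaPi-IIc, also overlapped, with levels of 33.3 to 39.7 in the monuron group and 36.4 to 42.0 in the corn oil group (-0.10 ± 0.10). The sulfate carrier of the basolateral membrane, Slc26a1, overlapped too (61.4 to 74.6 in the monuron group and 68.9 to 73.6 in the corn oil group, -0.09 ± 0.09).

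The promoter of Slc34a1 is shown for its matches to GTTAAT, the core letters bound by HNF1 factors, which regulate many proximal tubule genes. Each window printed here runs from 250 bases before the gene's annotated start to 50 after it, from RefSeq (GRCr8), with matches in capitals on either strand. The window of Slc34a1 lies at chr17:9238934-9239233 on the minus strand.
Slc34a1: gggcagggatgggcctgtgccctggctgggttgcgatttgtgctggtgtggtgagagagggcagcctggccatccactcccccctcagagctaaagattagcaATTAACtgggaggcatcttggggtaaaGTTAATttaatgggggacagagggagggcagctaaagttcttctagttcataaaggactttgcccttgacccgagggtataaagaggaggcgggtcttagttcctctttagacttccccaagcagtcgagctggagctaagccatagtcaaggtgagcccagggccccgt
Counted from the gene's start, the matches span bases -147 to -142 on the opposite strand and -120 to -115 on the gene's own strand. GTTAAT occurred in 4 of the 30 carriers that had a window in the table (Slc34a1, Slc6a19, Slc6a18 and Slc23a1) and in 7.45% of all 33469 windows. A longer form of the HNF1 site, GTTAATNAT, occurred in 0 of the carriers' windows and in 0.747% of all windows. The shorter form was added to the search after the levels were seen.

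The remaining 3 genes of the phosphate and sulfate class had every monuron array above every corn oil array, and none of them was called. Slc17a3 encodes the organic anion and urate exit carrier NPT4. It had levels of 26.5, 33.3 and 30.7 on the monuron arrays and 19.3, 17.4 and 22.5 on the corn oil arrays. The lowest monuron array lay above the highest corn oil array, and the log2 fold change was 0.61 ± 0.13 SE (adjusted p = 0.101). Slc13a1, the sodium-sulfate cotransporter of the brush border, had levels of 25.9, 25.3 and 25.2 on the monuron arrays and 22.0, 18.3 and 22.8 on the corn oil arrays. Its monuron arrays were close together, and the log2 fold change was 0.28 ± 0.10 (adjusted p = 0.23). Slc20a2, which encodes the type III phosphate cotransporter PiT-2, had levels of 9.62, 10.8 and 10.04 on the monuron arrays and 8.90, 9.04 and 7.44 on the corn oil arrays (log2 fold change 0.27 ± 0.10, adjusted p = 0.258). Set against Slc34a1 on the same array, Slc20a2 was relatively higher in the monuron group by 0.36 on the log2 scale, with an exact two-sided permutation p of 0.1 (0.2 after adjustment over the 4 pairs compared), the smallest p that 3 arrays against 3 can give.

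Slc17a1, a neighbour of Slc17a3 on rat chromosome 17 that encodes the sodium-phosphate and urate carrier NPT1, was the one gene called among 21 further tubule carriers that were tested of 24 listed (4.76% of them, beside 1.36% of all genes). Its level was 5.16, 4.67 and 5.02 on the monuron arrays and 2.77, 2.89 and 3.32 on the corn oil arrays. All monuron arrays lay above all corn oil arrays, and Slc17a1 rose with a log2 fold change of 0.73 ± 0.09 (adjusted p = 0.033). It was called under 11 of 20 alternatives, and not with spike-in scaling (0.14, adjusted p = 0.333) or without any one array other than corn oil replicate 3. On either side of Slc17a1 and Slc17a3 lie Slc17a4 (0.32 ± 0.16, adjusted p = 0.362) and Slc17a2 (0.03 ± 0.09, adjusted p = 0.886). These outer genes were chosen after the values of Slc17a3 and Slc17a1 were seen, and they were not called. Slc34a2, the phosphate carrier NaPi-IIb, exceeded background clearly on all 3 monuron arrays (levels of 0.0767, 0.0840 and 0.0974) and on 0 of the corn oil arrays, and it was not called (adjusted p = 0.0779). Slc5a11, which encodes the myo-inositol cotransporter SMIT2, was not called either (-0.39 ± 0.07, adjusted p = 0.0763).

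**Figure D2:**
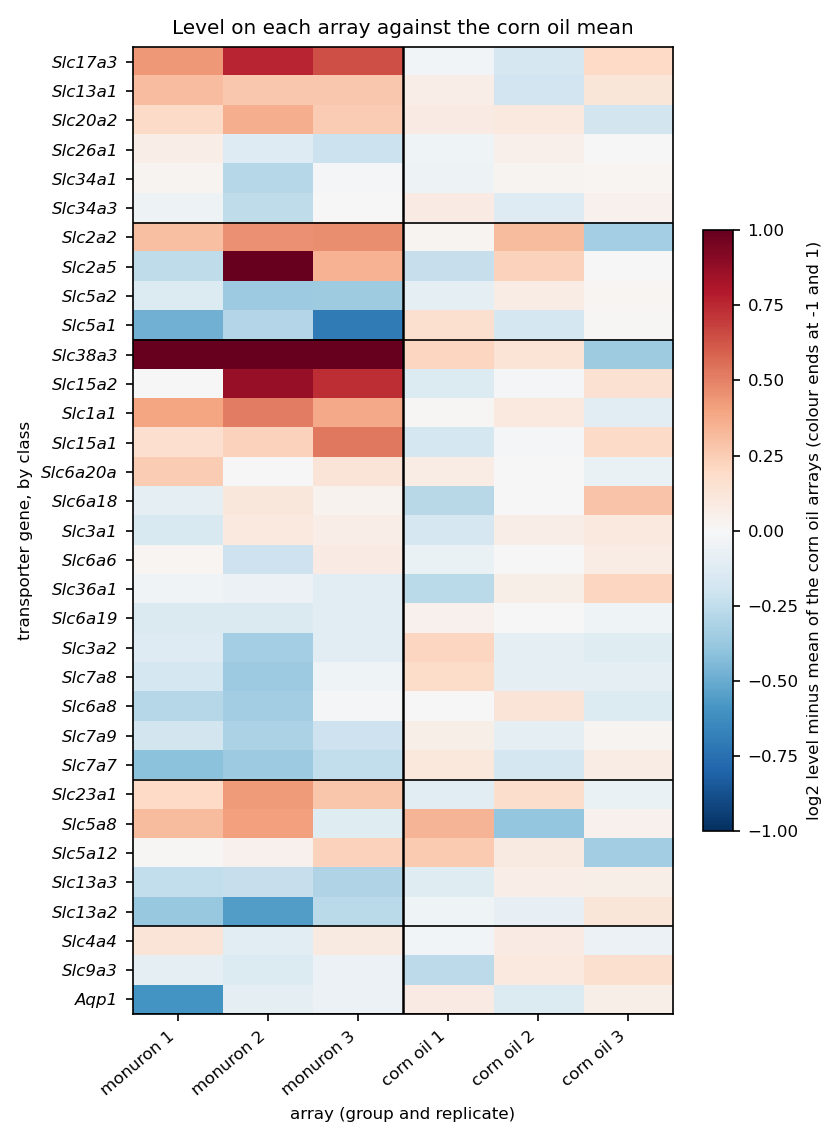
Each row is a carrier, ordered by class, and each column an array, with the 3 monuron arrays left of the 3 corn oil arrays; colour is the log2 level minus the mean of the corn oil arrays, with the colour scale ending at -1 and 1. Slc38a3 is beyond the scale on all 3 monuron arrays, and most other rows are pale in both groups.

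The glucose carriers of the early and late segments lay below the corn oil arrays, and the exit carrier did not. Slc5a2 encodes SGLT2, the high-capacity glucose carrier of S1. It had levels of 165, 141 and 142 on the monuron arrays and 170, 191 and 185 on the corn oil arrays. Monuron replicate 1 was close to the lowest corn oil array, and the groups did not overlap (log2 fold change -0.28 ± 0.09 SE, adjusted p = 0.209). Its 3 probes had log2 fold changes of -0.42 to -0.28. Slc5a1 encodes SGLT1, the high-affinity carrier of S3. It had levels of 0.255, 0.290 and 0.217 on the monuron arrays and 0.397, 0.314 and 0.359 on the corn oil arrays. All 3 monuron arrays were lower, and its 2 probes gave -0.49 and -0.40 (brightest probe -0.49 ± 0.14, adjusted p = 0.167).

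Slc2a2 encodes GLUT2, the basolateral exit carrier for glucose. Its level was 18.0, 20.1 and 20.2 on the monuron arrays and 14.9, 18.2 and 11.5 on the corn oil arrays, so that one corn oil array was above the lowest monuron array. The log2 fold change was 0.41 ± 0.17 (adjusted p = 0.301). Its 3 probes gave 0.41 to 0.47, and on 1 of them every monuron array was higher. Relative to Slc5a2 on the same array, Slc2a2 was higher in the monuron group by 0.69 on the log2 scale (exact two-sided permutation p = 0.1, the smallest possible, and 0.2 over the 4 pairs), and Slc5a1 relative to Slc5a2 differed by -0.21 (exact permutation p = 0.3, and 0.3 over the 4 pairs). Slc2a5, the fructose carrier GLUT5 of S3, had levels of 1.33, 3.25 and 2.01 on the monuron arrays and 1.35, 1.85 and 1.58 on the corn oil arrays. The monuron arrays ranged from below the lowest corn oil array to above the highest (0.38 ± 0.33, adjusted p = 0.599).

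Slc38a3, the one carrier called, encodes the sodium-coupled neutral amino acid carrier SNAT3. It takes glutamine into the S3 cell on the blood side, where ammonia is formed from it, and it is known to be induced in kidney in acidosis. Its level was 1.05, 1.44 and 1.52 on the monuron arrays and 0.546, 0.519 and 0.368 on the corn oil arrays. The lowest monuron array lay well above the highest corn oil array. Slc38a3 rose 2.81-fold (95% interval 1.96 to 4.01), a log2 fold change of 1.49 ± 0.21 SE, with a limma adjusted p of 0.0419. It was called under 12 of 21 alternatives, with a log2 fold change of 0.90 to 1.65 and an adjusted p of 0.00434 to 0.169. The call was lost when any single array was left out (log2 fold change 1.31 to 1.65, adjusted p 0.0834 to 0.151). It rests on 1 probe.

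Slc38a3 is also a liver gene, so its level was set beside the hepatocyte markers. Alb had levels of 15.3, 4.35 and 4.11 on the monuron arrays and 1.33, 1.09 and 6.34 on the corn oil arrays. Between the groups most hepatocyte markers differed in the same direction as Slc38a3. Of the 10, 9 lay above 0 and 1 below, their median was 0.50, and 0 were called. Alb itself stood at 1.63 ± 0.84 on the log2 scale (limma adjusted p = 0.379). Within each group the array with the highest Alb had the lowest Slc38a3. Without the array highest in liver transcripts in each group, the log2 fold change of Slc38a3 was 1.48 ± 0.09, with 2 arrays a group (adjusted p = 0.131). Enzymes that make glutamine or handle its products, picked after Slc38a3 was seen, were not called: Glud1 (glutamate dehydrogenase, -0.14 ± 0.11), Pck1 (phosphoenolpyruvate carboxykinase, -0.13 ± 0.08) and Glul (glutamine synthetase, -0.03 ± 0.13). All 3 overlapped between the groups. The cause of the difference in Slc38a3 was not tested.

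**Figure D3:**
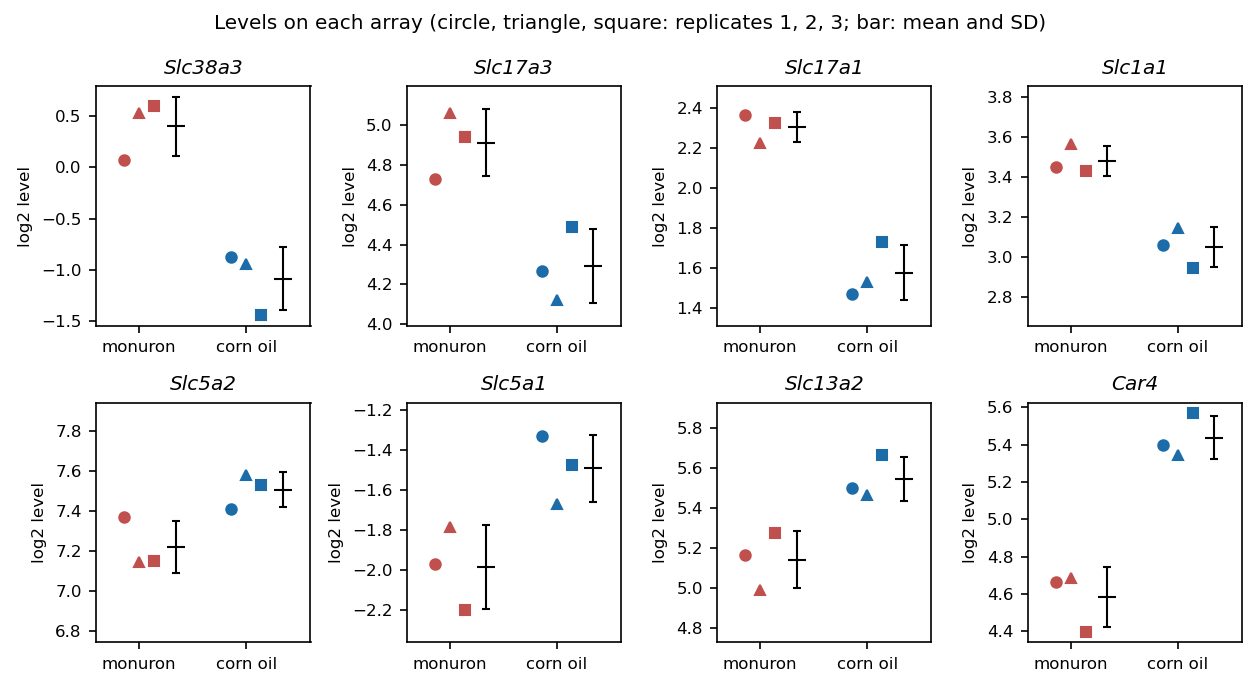
Log2 level on each array for carriers and partner genes described here, with monuron arrays left of corn oil arrays in each panel, shapes for replicates 1 to 3 and a bar for mean and SD (n = 3). Slc38a3, Slc17a3, Slc17a1 and Slc1a1 have every monuron array above every corn oil array, and Slc5a2, Slc5a1, Slc13a2 and Car4 have every monuron array below; the vertical scale differs between panels.

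Among the other amino acid carriers, 1 more had every monuron array above every corn oil array. Slc1a1 encodes the glutamate and aspartate carrier EAAC1 (EAAT3) of the brush border. It had levels of 10.9, 11.8 and 10.8 on the monuron arrays and 8.33, 8.85 and 7.70 on the corn oil arrays. The replicates of each group were close together, and the log2 fold change was 0.43 ± 0.08 (adjusted p = 0.0815). Slc1a1 was not called, except under 1 of 21 alternatives, the robust and trended variance (adjusted p = 0.0306), and with spike-in scaling it lay at -0.16.

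Slc7a7, Slc7a9 and Slc6a19 had every monuron array below every corn oil array, and none was called. Slc7a7 encodes y+LAT1, the basolateral exit carrier for dibasic amino acids, with levels of 4.56, 4.70 and 5.13 in the monuron group and 6.53, 5.36 and 6.37 in the corn oil group (-0.34 ± 0.10, adjusted p = 0.182). Slc7a9 encodes the light chain of the cystine carrier, with levels of 48.4, 44.0 and 47.4 in the monuron group and 57.1, 51.6 and 56.0 in the corn oil group (-0.24 ± 0.08, adjusted p = 0.203). Slc6a19 encodes B0AT1, the main brush border carrier for neutral amino acids, with levels of 10.3, 10.3 and 10.5 in the monuron group and 11.7, 11.4 and 11.0 in the corn oil group (-0.13 ± 0.06, adjusted p = 0.329). The differences of these 3 genes were small beside that of Slc38a3.

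Slc3a1 encodes rBAT, the heavy chain that pairs with the product of Slc7a9, and it overlapped between the groups (levels of 207, 246 and 241 on the monuron arrays and 205, 241 and 246 on the corn oil arrays, 0.01 ± 0.11). The ratio of Slc7a9 to Slc3a1 differed by -0.24 on the log2 scale (exact permutation p = 0.3, and 0.3 over the 4 pairs). The window of Slc3a1 is shown because it was the one carrier window that held the HNF4 site CAAAGTCCA, against 0.391% of all windows. It lies at chr6:15394700-15394999 on the minus strand.
Slc3a1: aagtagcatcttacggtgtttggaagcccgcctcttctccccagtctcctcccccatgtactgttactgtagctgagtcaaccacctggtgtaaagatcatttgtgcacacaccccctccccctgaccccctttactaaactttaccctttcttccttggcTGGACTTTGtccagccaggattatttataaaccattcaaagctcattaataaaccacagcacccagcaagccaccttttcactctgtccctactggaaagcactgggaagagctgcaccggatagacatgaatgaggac
The match spans bases -89 to -81 from the start, on the strand opposite to the gene. A match of letters does not show that a factor binds there.

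Slc6a18, the neighbour of Slc6a19 on rat chromosome 1 that encodes the glycine carrier XT2 (B0AT3), overlapped between the groups (levels of 19.9 to 23.0 in the monuron group and 17.6 to 26.0 in the corn oil group, 0.02 ± 0.15). Slc6a19 and Slc6a18 each held GTTAAT on the opposite strand, so that its reverse complement stands in capitals. The 60 bases around the match are shown for both, at chr1:31414601-31414660 and chr1:31436507-31436566 on the plus strand.
Slc6a19: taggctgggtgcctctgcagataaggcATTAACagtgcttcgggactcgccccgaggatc
Slc6a18: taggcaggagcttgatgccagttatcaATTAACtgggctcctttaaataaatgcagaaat
The matches begin at base -116 of Slc6a19 and at base -119 of Slc6a18, counted from the start.

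The remaining amino acid and peptide carriers overlapped between the groups, and none was called. Slc6a20a, a proline carrier, had a log2 fold change of 0.13 ± 0.09 by its brightest probe and 0.76 by its other, dimmer probe, which was called when every probe was tested on its own (adjusted p = 0.0351). The probes of Slc6a20a thus agreed in direction and not in size. The taurine carrier Slc6a6 (-0.03 ± 0.10), the creatine carrier Slc6a8 (-0.22 ± 0.12), the exit carrier light chain Slc7a8 (-0.20 ± 0.12), its heavy chain Slc3a2 (-0.19 ± 0.12) and the proton-coupled carrier Slc36a1 (-0.07 ± 0.13) lay below 0. The peptide carriers lay above 0 by their brightest probes: Slc15a1, which encodes PEPT1, at 0.31 ± 0.14 and Slc15a2, which encodes PEPT2 of S3, at 0.54 ± 0.24. The 3 probes of Slc15a1 gave -0.01 to 0.31. Over all carriers, 19 had several probes that passed the filter, of which 14 had the same sign on every probe and 5 had both signs. Those 5 were Slc6a18, Slc6a6, Slc3a1, Slc15a1 and Slc9a3.

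Slc13a2 and Slc13a3, the carriers for citrate and other dicarboxylates, had every monuron array below every corn oil array. Slc13a2 encodes NaDC1 of the brush border, with levels of 35.9, 31.8 and 38.7 in the monuron group and 45.4, 44.1 and 50.9 in the corn oil group. The highest monuron array lay below the lowest corn oil array (log2 fold change -0.40 ± 0.10, adjusted p = 0.137), and its 3 probes gave -0.49 to -0.08. Slc13a3 encodes NaDC3 of the basolateral membrane, with levels of 343, 347 and 330 in the monuron group and 373, 425 and 423 in the corn oil group (-0.26 ± 0.08, adjusted p = 0.187).

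The ascorbate carrier Slc23a1, which encodes SVCT1, had the opposite order. Its level was 3.11, 3.64 and 3.30 on the monuron arrays and 2.51, 3.08 and 2.60 on the corn oil arrays, and it was not called (0.30 ± 0.11, adjusted p = 0.243). The lowest monuron array was just above the highest corn oil array. The monocarboxylate (lactate) carriers Slc5a8 (0.20 ± 0.23) and Slc5a12 (0.10 ± 0.17) overlapped. In the acid-base and water class, Slc9a3, the sodium-proton exchanger NHE3, Slc4a4, the basolateral bicarbonate cotransporter NBCe1, and Aqp1, the water channel, overlapped (-0.10 ± 0.12, 0.04 ± 0.09 and -0.25 ± 0.17). The 3 probes of Slc4a4 gave 0.04 to 0.26, and on 1 of them every monuron array was higher. Aqp1 had levels of 81.5, 116 and 119 on the monuron arrays and 131, 112 and 128 on the corn oil arrays, with monuron replicate 1 the lowest.

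The carbonic anhydrase Car4, which works on both membranes beside these carriers in bicarbonate recovery, was lower. Its level was 25.4, 25.7 and 21.1 on the monuron arrays and 42.2, 40.7 and 47.4 on the corn oil arrays. All monuron arrays lay below all corn oil arrays, and Car4 fell with a log2 fold change of -0.85 ± 0.11 (adjusted p = 0.034). It was called under 10 of 20 alternatives, and not without any single array (log2 fold change -0.90 to -0.76). Of the 7 genes of the sodium pump and carbonic anhydrases, 1 was called lower (14.3%, beside 0.414% of all genes) and 0 higher. The cytosolic carbonic anhydrase Car2 (0.16 ± 0.06) was not called (adjusted p = 0.258).

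Scaffolds, subunits and regulators of the carriers were not called. Of 17 such genes, 15 had a log2 fold change below 0, with a median of -0.14, beside 0.02 over all genes and -0.03 over the carriers. The 3 with the smallest p were Pth1r, the parathyroid hormone receptor that acts on phosphate carriers (-0.43 ± 0.09, adjusted p = 0.0896), Pdzk1ip1, a small membrane protein that associates with SGLT2 (-0.59 ± 0.12, adjusted p = 0.0922), and Hnf4a, a transcription factor of proximal tubule genes (-0.31 ± 0.09, adjusted p = 0.179). Pdzk1ip1 had levels of 33.4, 33.8 and 42.2 on the monuron arrays and 54.5, 50.5 and 58.98 on the corn oil arrays. Lrp2 and Cubn, the endocytic receptors of the proximal tubule, stood at -0.52 ± 0.10 and -0.69 ± 0.12 and were not called (adjusted p of 0.076 and 0.0669).

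Some carriers of segment S3 varied widely between arrays of one group. Slc2a5 and Slc15a2 were lowest on monuron replicate 1 among the monuron arrays and on corn oil replicate 1 among the corn oil arrays. Slc15a2 had levels of 0.496, 0.911 and 0.831 on the monuron arrays and 0.452, 0.492 and 0.553 on the corn oil arrays. Slc2a5 and Slc15a2 had the widest intervals of the 33 carriers. Slc5a1 and Slc38a3, also described here as carriers of S3, had another order. Slc5a1 was lowest on monuron replicate 3 and corn oil replicate 2, and Slc38a3 on monuron replicate 1 and corn oil replicate 3. The order of Slc2a5 was not limited to these genes. Slc3a1, Slc6a18, Slc15a1 and Slc23a1 of the list were likewise lowest on replicate 1 of each group. Replicate numbers do not pair samples between the groups, and the share of all genes with this order is not given here.

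Outside the list, and picked because their values showed the order of Slc2a5, Slc7a13 and Slc5a10 were also lowest on replicate 1 of each group. Slc7a13, a cystine and aspartate carrier of S3 in rodents, had levels of 19.5, 50.8 and 49.1 on the monuron arrays and 10.1, 24.3 and 22.9 on the corn oil arrays (1.04 ± 0.51, adjusted p = 0.356). Slc5a10, a mannose and fructose carrier, had groups that did not overlap (0.97 ± 0.32, adjusted p = 0.208). The thick ascending limb runs beside S3 in the outer stripe. Of its 4 markers, Umod, Slc12a1 and Cldn16 were lowest on monuron replicate 1, and Kcnj1 was lowest on monuron replicate 2 (1.83, 1.70 and 2.21 on the monuron arrays and 2.06, 1.75 and 1.69 on the corn oil arrays). Among the corn oil arrays, only Slc12a1 was lowest on replicate 1, and Umod, Cldn16 and Kcnj1 were lowest on replicate 3. Umod had levels of 234, 366 and 316 on the monuron arrays and 279, 370 and 264 on the corn oil arrays. The part of this segment in the levels of the S3 carriers was not tested.

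**Figure D4:**
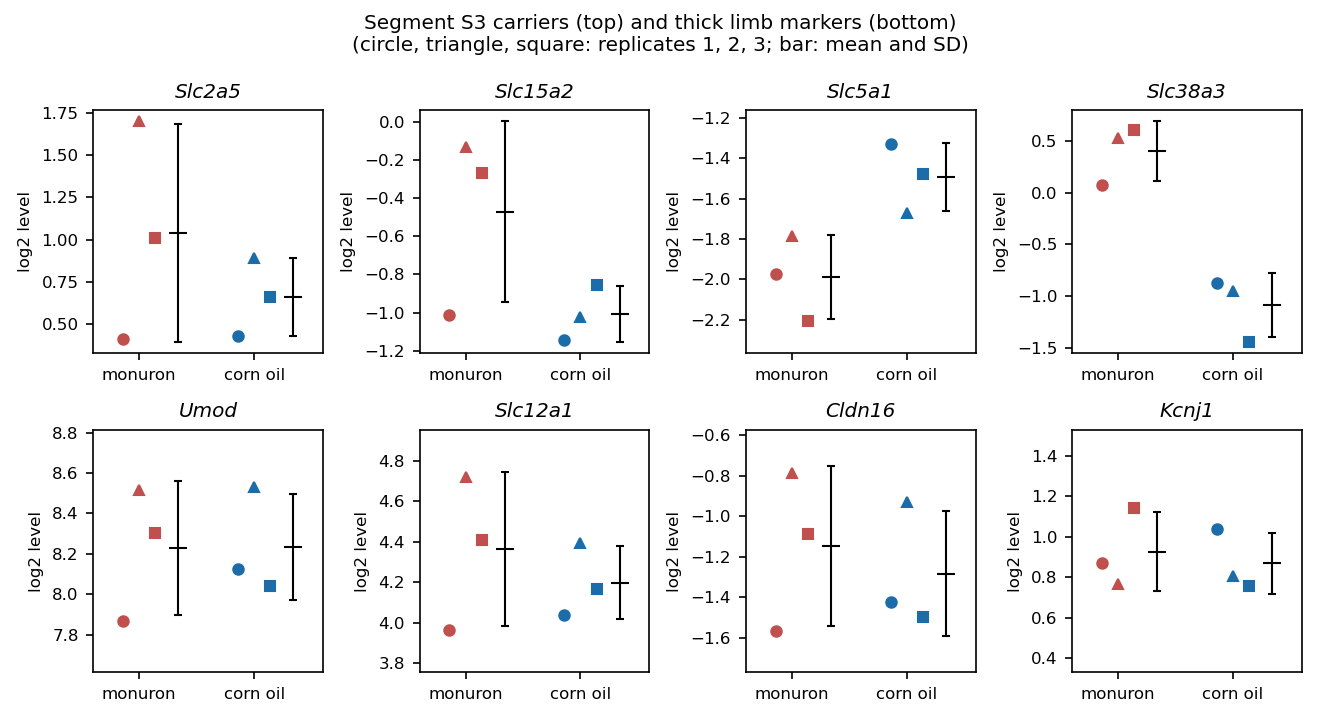
Log2 level on each array of the 4 listed carriers described here as carriers of S3 (top) and the 4 thick ascending limb markers (bottom), with monuron arrays left of corn oil arrays, shapes for replicates 1 to 3 and a bar for mean and SD (n = 3); the vertical scale differs between panels. Monuron replicate 1 is the lowest monuron array for all but Slc5a1 and Kcnj1. Corn oil replicate 1 is the lowest corn oil array for Slc2a5, Slc15a2 and Slc12a1 only.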

How the data were processed

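Rat renal cortex RNA was measured on 6 one-colour Agilent arrays. The authors deposited scanner files of spot intensity on a linear scale; per the submitters' processing notes these came from Agilent Feature Extraction 10.7. Their deposited value table holds a linear ratio. Its column medians were 0.111, 0.111 and 0.110 for monuron and 0.108, 0.111 and 0.112 for corn oil. Above a cutoff just under these medians, the ratio was found to equal the processed signal over 1 constant per array within 0.0497%. Lower values were not compared. From the processed signals, log2 values were taken and each array's 75th percentile over 61537 non-control probes was subtracted. A probe was kept if at least 1 group had it well above background on all its 3 arrays (41125 probes). Accessions were matched to RefSeq (GRCr8), which named 28206 probes (45.8%), and the brightest probe represented a gene. limma 3.58.1 (R 4.3.3) gave two-sided tests by lmFit and eBayes, Benjamini-Hochberg adjusted over 30229 genes at 0.05; errors are SE. The p-values measure the spread between these 3 samples a group. The normexp alternative (offset 50) used the median spot signal, since the files hold no mean. On simulated arrays of 30208 genes the fit called 30.1% of 1.5-fold, 60.6% of 2-fold and 84.2% of 4-fold changes. Each of 5 runs changed 200 genes, with independent normal noise and no slide difference. Of 614 calls, 32 were false. These rates hold for that setting and may differ for the real arrays. Named are all 33 carriers, called genes and the 3 smallest p of each other pathway list, and a few markers, except some genes that are not reported here. The carriers and lists were chosen with earlier results of these data known; genes and a motif added after values were seen are named as such.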

Additional observations from a re-analysis of the deposited data

How the results depend on the processing

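Of the 33 carriers, 26 kept the sign of their log2 fold change under every alternative other than spike-in scaling, and 16 under all. Shares here are of all genes tested and compare with 0.949% called higher and 0.414% called lower. With no scaling, 0.202% were called lower and the carrier median was 0.052. With spike-in scaling (8 control probes), 75% of genes and 23 carriers were called lower and the carrier median was -0.62. Of the 16 carriers above 0, 14 turned to below 0, of which 6 were then called lower: Slc20a2 (-0.316), Slc6a18 (-0.57), Slc6a20a (-0.458), Slc3a1 (-0.58), Slc5a12 (-0.488) and Slc4a4 (-0.545). With normexp and quantile normalization, 1.49% were called higher and 1.06% lower, and the carrier median was -0.091. Without the detection filter, 0.147% were called higher and 0.0418% lower, with 0 carriers higher. With trended and robust variance, 1.43% were called higher and 0.913% lower, with 2 carriers higher (Slc38a3 and Slc1a1). Leaving out the array highest in liver transcripts in each group gave 0 genes higher and 0 lower in limma (2622 and 1568 at an unadjusted p under 0.05), with 0 carriers higher. Leaving out single arrays gave 0.0821% to 0.366% of genes higher, 0.0164% to 0.0891% lower, 0 carriers higher each time and a carrier median of -0.077 to 0.002. Samples of the groups share a replicate number only: same-numbered deviations correlated at -0.08, 0.11 and -0.17, and not every sample correlated best with its own number. The replicate block gave 0 genes higher and 0 lower in limma (2810 and 1747 at an unadjusted p under 0.05), with 0 carriers higher. A slide block was not run, since each slide held 1 group. The number of arrays, 3 a group, limits the precision. Fewer samples enter the fits without arrays, and more genes are tested without the filter; the cause of the other shifts was not tested.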
